A study of Homo sapiens with 6 samples.

Results

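The genes MYB, MYBL1 and MYBL2, which encode the MYB family of transcription factors, and HBS1L, the gene next to MYB, were examined in peak lists of H3K27ac, the acetylation of histone H3 found at promoters and enhancers in use. All peaks over the bodies of these 4 genes or within 50 kb of them were taken, together with all peaks of a 400.0 kb interval of chromosome 6 that runs from outside ALDH8A1 across HBS1L and MYB into AHI1 (build hg38). This gave 68 of 86200 deposited peaks: 12 of 16697 in Jurkat replicate 1, 12 of 33141 in Jurkat replicate 2 and 44 of 36362 in 6T-CEM. Jurkat and 6T-CEM are established human cell lines of T-cell acute lymphoblastic leukaemia, T-ALL, and the series holds 2 H3K27ac libraries of Jurkat, 1 of 6T-CEM and 3 IgG controls, which were not analysed here. The title of the series names GNE-987, a BET bromodomain inhibitor, and its design text mentions 10 nM and 24 h, but the sample labels give no treatment. The peak names inside the list of Jurkat replicate 2 begin with Jur-NE and those of replicate 1 with Jur, and no source used here says what the suffix stands for.

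MYB is a transcription factor of blood progenitors and immature T cells, binds DNA through repeated helix-turn-helix units and recruits the acetyltransferases CBP and p300. In T-ALL it acts as an oncogene, can be duplicated or moved beside T-cell receptor genes, and occupies enhancers together with TAL1, GATA3 and RUNX1. MYBL2 is the family member of dividing cells and works with the MuvB complex on genes of the G2 and M phases, while MYBL1 is best known from male germ cells and some B cells. HBS1L encodes a ribosome rescue factor, and the DNA between HBS1L and MYB holds distal enhancers of MYB that are known from erythroid cells.

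Promoter sequences are shown because the peaks at MYB, MYBL2 and HBS1L began, ended or lay over them. They are the 250 bases before the annotated start, from RefSeq (GRCh38.p14, the same build as hg38), for the 3 of 4 genes matched in the promoter table, and are written in the direction of the gene. Capitals mark TTGGCGGGA, a sequence of the kind bound by E2F factors, in MYB and MYBL2, and CGCATGCG, the centre of the palindrome bound by NRF1, in HBS1L.
MYB promoter, chr6:135181058-135181307, plus strand: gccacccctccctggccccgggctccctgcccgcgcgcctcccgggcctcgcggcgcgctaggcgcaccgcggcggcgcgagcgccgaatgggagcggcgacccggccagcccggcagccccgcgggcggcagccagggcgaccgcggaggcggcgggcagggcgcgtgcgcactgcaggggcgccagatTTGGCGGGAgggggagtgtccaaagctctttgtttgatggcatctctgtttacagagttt
MYBL2 promoter, chr20:43666864-43667113, plus strand: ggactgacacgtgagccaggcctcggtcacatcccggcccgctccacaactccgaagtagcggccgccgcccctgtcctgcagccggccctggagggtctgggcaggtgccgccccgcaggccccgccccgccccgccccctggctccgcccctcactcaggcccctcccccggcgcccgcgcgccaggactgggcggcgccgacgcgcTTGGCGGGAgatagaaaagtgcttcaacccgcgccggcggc
HBS1L promoter, chr6:135054823-135055072, minus strand: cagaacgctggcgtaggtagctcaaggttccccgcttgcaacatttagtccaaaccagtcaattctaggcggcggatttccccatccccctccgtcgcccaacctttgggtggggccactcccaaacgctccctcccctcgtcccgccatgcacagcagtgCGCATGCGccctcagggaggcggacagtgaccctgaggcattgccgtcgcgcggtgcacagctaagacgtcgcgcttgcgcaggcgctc

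Both family members with a sequence in the table thus carry the same 9 bases close to the start, 60 to 52 bases before it in MYB and 41 to 33 bases before it in MYBL2. On either strand, TTGGCGGGA was found in 71 of the 15813 promoters of protein-coding genes in the table (0.449%), and CGCATGCG in 394 of them (2.49%). The motifs were picked after these sequences had been read, so the matches are descriptions. The MYB site AACNG, searched on both strands, had 1 match in the MYB promoter and none in the others, against 68.4% of all promoters with a match. TTTGAA, the cell-cycle homology region known from G2 and M phase genes, was found in none of the 3 and in 10.8% of all promoters. GC content was 75.6% in MYB, 76.8% in MYBL2 and 64.0% in HBS1L, beside a median of 62.4%.

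The peaks stood differently to these sequences in each library. At MYB, peaks covered all 250 bases in Jurkat replicate 1 and in 6T-CEM, but 0 bases in Jurkat replicate 2, whose peak began inside the gene. At HBS1L they covered 250, 0 and 41 bases in Jurkat replicates 1 and 2 and in 6T-CEM. At MYBL2 they covered 81, 0 and 8 bases, so that the acetylated stretch of this promoter lay almost wholly on the gene side of the start.

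A short account of the whole lists is needed to read these values. On chromosomes 1 to 22 and X the lists held 16159, 32097 and 35154 peaks covering 16.2, 27.6 and 34.3 Mb in Jurkat replicates 1 and 2 and in 6T-CEM, so 6T-CEM had the longest list and most bases. The lists were also compared at equal length, with 16159 peaks in each. The lists hold no read counts, so the depth is unknown. Each library had a peak within 1 kb of an annotated end of 5 to 6 of the 6 T-cell markers (CD3D, CD3E, CD3G, CD2, CD7 and LCK), the exception being CD7 in Jurkat replicate 1. For other blood cells the numbers of marker genes with such a peak were 0 to 2 of 5 for myeloid cells, 0 of 4 for erythroid cells and 1 of 4 for NK cells (NKG7). Of the B-cell genes reported here, CD79A had such a peak in each library and PAX5, EBF1 and MS4A1 had none. All libraries thus had peaks at most T-cell genes and also at CD79A and NKG7, and none within 1 kb of the ends of the erythroid genes.

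MYB was the member with the widest acetylation in 6T-CEM. Within its body and 50 kb on either side, peaks covered 5430 bp in Jurkat replicate 1, 4238 bp in Jurkat replicate 2 and 22254 bp in 6T-CEM. The Jurkat values lay close together and the 6T-CEM value far above both. The number of peaks there was 5, 4 and 32, and the covered share of this window was 3.94%, 3.07% and 16.1%. Across 15640 protein-coding genes that had a covered base in at least 1 library, the median share was 1.15%, 1.37% and 1.80% in the same order. With 500 bp added to each value, the log2 ratio of covered bases in 6T-CEM to the Jurkat mean was 2.09 at MYB. The median of this ratio over all genes was 0.35 with an SD of 1.00. The log2 ratio of Jurkat replicate 1 to replicate 2 at MYB was 0.32, so at this gene the difference between the lines exceeded that between the replicates. Over all genes the replicate ratio had a median of −0.17 and an SD of 1.09, so it spread about as widely as the ratio between the lines.

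A gene was called higher in 6T-CEM when its value, with 500 bp added, was at least 2-fold that of each Jurkat library, and lower when it was at most 0.5-fold of each. Of the 4 members, MYB was called higher, as were 2333 of 15640 genes (14.9%), and no member was called lower, as were 429 genes (2.74%). MYB was called in the same direction with equally long lists, with stricter peaks, in windows of 25 kb and 100 kb, and without either Jurkat library. By part of its window, MYB was called higher in the 50 kb downstream, with a log2 ratio of 4.68, as were 16.1% of genes there. It was not called in the gene body, with 0.92, or in the 50 kb upstream, with 0.82. No test between the lines was possible, since 6T-CEM had 1 library and its own spread is unknown. From the labels it cannot be told whether the replicates of Jurkat were separate cultures.

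**Figure D1:**
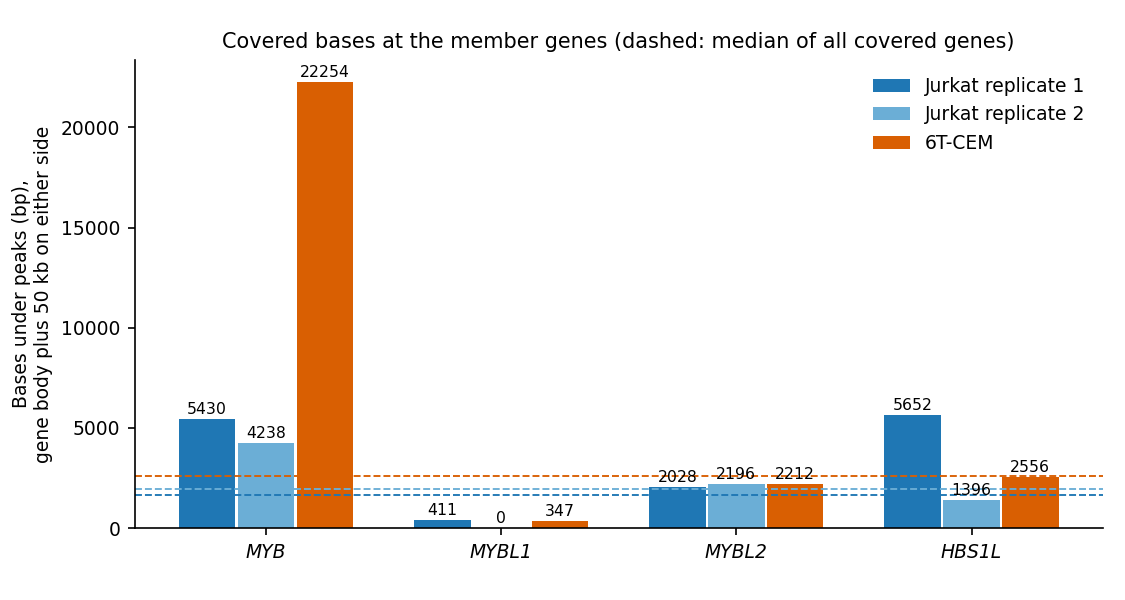
Bases under H3K27ac peaks (vertical axis, bp) within the body and 50 kb on either side of each member gene, with 1 bar per library and its value above it. Dashed lines give each library's median over all genes with covered bases. In MYB the 6T-CEM bar reaches 22254 bp and the Jurkat bars 5430 and 4238 bp, whereas in MYBL2 the bars are of similar height and in MYBL1 Jurkat replicate 2 is at 0 bp.

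HBS1L, the neighbour of MYB on its upstream side, did not follow it. As the plot of covered bases by gene shows, HBS1L had 5652 bp in Jurkat replicate 1, 1396 bp in Jurkat replicate 2 and 2556 bp in 6T-CEM, which placed 6T-CEM between the Jurkat libraries. Its log2 ratio between the lines was −0.40, smaller in size than the 1.70 between the Jurkat replicates. Without Jurkat replicate 2 HBS1L would be called lower, with a log2 ratio of −1.01. AHI1, the gene on the other side of MYB, encodes a protein of the primary cilium and was not a member. It was counted over its body alone, where peaks covered 10412, 3559 and 6977 bp, with 6T-CEM between the Jurkat libraries. Peaks of 6T-CEM beyond MYB lay within 50 kb of AHI1, so these values cannot be set beside the wider windows of MYB and HBS1L.

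**Figure D2:**
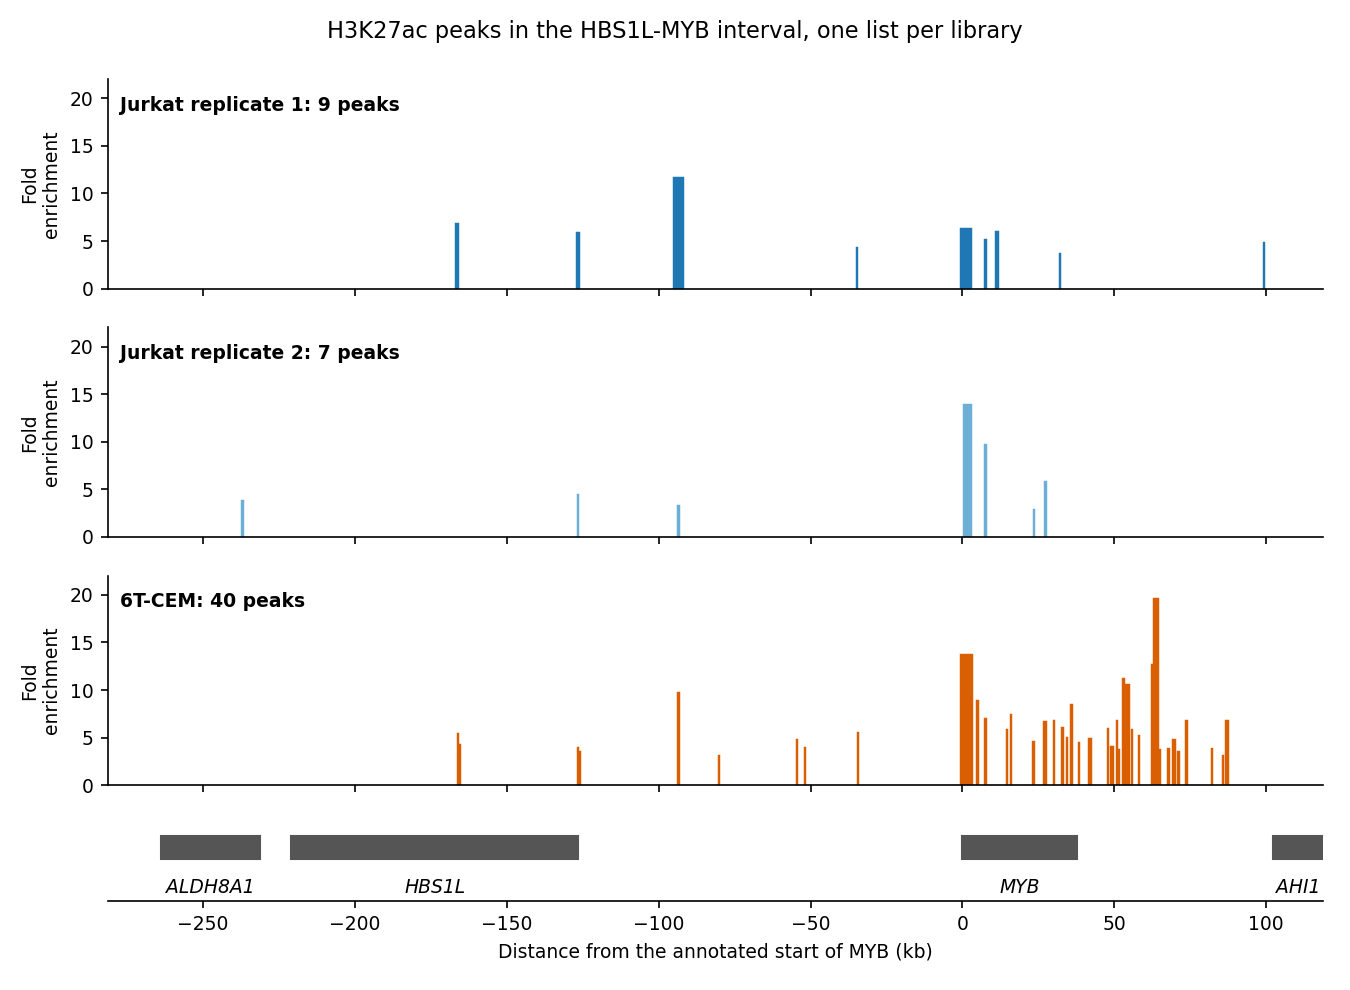
Peaks of the HBS1L-MYB interval by distance from the annotated start of MYB (horizontal axis, kb), with the width of each peak to scale and its height giving the authors' fold enrichment. Bars at the bottom are protein-coding genes, cut off at the ends of the interval. Of the 40 peaks of 6T-CEM, 11 have their summit in MYB and 20 beyond it, the last about 87 kb past the start, whereas the Jurkat lists have 9 and 7 peaks in the whole interval.

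The whole interval held 9 peaks with 11442 bp in Jurkat replicate 1, 7 peaks with 5634 bp in Jurkat replicate 2 and 40 peaks with 25561 bp in 6T-CEM. Joined where they shared at least 1 base, they formed 43 regions. Of these, 4 held peaks of all libraries, 2 of Jurkat replicate 1 and 6T-CEM, 2 of Jurkat replicate 2 and 6T-CEM, and 31 of 6T-CEM alone. Jurkat replicate 1 alone had 3 regions and Jurkat replicate 2 alone had 1, and no region joined both Jurkat libraries without 6T-CEM. Over the whole genome 32.2% of 49528 regions were found in 6T-CEM alone and 17.4% in all libraries. Jurkat replicate 1 alone had 5.39% of them and Jurkat replicate 2 alone 23.9%. Both Jurkat libraries without 6T-CEM had 3.20%, so the absence of this class among 43 regions is close to its genome share. Of the 40 peaks of 6T-CEM in the interval, 31 overlapped no Jurkat peak, compared with 45.4% of all 6T-CEM peaks without such an overlap in either Jurkat list. With lists of equal length the interval kept 9, 4 and 22 peaks in Jurkat replicates 1 and 2 and in 6T-CEM, and regions found in 6T-CEM alone numbered 15. No genome share was taken at equal length, so this count has none beside it.

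Every library had a peak over the start of MYB or just inside it. The peak there spanned 3578 bp (chr6:135180628-135184205) in Jurkat replicate 1, 2782 bp (chr6:135181326-135184107) in Jurkat replicate 2 and 3930 bp (chr6:135180372-135184301) in 6T-CEM. Its fold enrichment over background, as called by the authors, was 6.41, 13.9 and 13.8, so Jurkat replicate 2 and 6T-CEM resembled each other more than the Jurkat libraries did. By −log10 q, a measure of how far a peak stands out from background, its value was 9.63, 43.3 and 91.5. In 6T-CEM this placed it at rank 10 of 35154 peaks, in Jurkat replicate 2 at rank 333 of 32097 and in Jurkat replicate 1 at rank 4802 of 16159. Its summit lay 1354 bases past the annotated start in Jurkat replicate 2 and 1367 bases past it in 6T-CEM, but 2423 bases past it in Jurkat replicate 1.

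Inside MYB, 1 further region was shared by all libraries. It lay about 7 kb past the start, with folds of 5.22 in Jurkat replicate 1, 9.74 in Jurkat replicate 2 and 7.03 in 6T-CEM, and its summits lay within 111 bases of each other. Jurkat replicate 2 and 6T-CEM shared a pair of regions farther inside the gene, with summits 23.4 kb past the start in both libraries for the first, and 27012 and 26775 bases past it for the second. Jurkat replicate 1 had peaks of its own at 11.2 kb, with a fold of 6.07, and at 32.0 kb, with a fold of 3.77. The remaining 7 of the 11 6T-CEM peaks with a summit in the gene overlapped no Jurkat peak, beside 45.4% of all 6T-CEM peaks. In all, peaks covered 4453, 4238 and 8651 bp of the 37.9 kb gene body, or 11.8%, 11.2% and 22.8%.

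The densest acetylation of 6T-CEM outside the gene lay beyond the far end of MYB and not upstream of it. From the end of the gene to the end of the interval, 6T-CEM had 20 peaks with 12355 bp, Jurkat replicate 1 had 1 peak of 360 bp, and Jurkat replicate 2 had none. All 20 lay within 50 kb of the gene's end, where neither Jurkat library had a peak. None of the 20 overlapped a Jurkat peak, beside 45.4% of all 6T-CEM peaks without such an overlap. Together the 20 made up 48.3% of the bases under 6T-CEM peaks in the interval. The lone Jurkat peak was 61.2 kb past the end of MYB, close to AHI1. Among the 15813 protein-coding genes whose direction was known, 378 had more bases under 6T-CEM peaks than MYB in the 50 kb downstream of the gene. In this downstream window 1389 of 8609 genes with bases in any library (16.1%) met the rule for a higher value in 6T-CEM, and MYB was among them. The 20 peaks were picked out after their positions had been seen.

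The highest fold of the whole interval was reached in this downstream cluster. The peak at chr6:135244153-135245571 in 6T-CEM had a fold of 19.7, above that of the MYB start in the same library, and was 1419 bp wide. Its summit lay 63.9 kb past the start and 26.1 kb past the end of the gene, and its fold exceeded that of 99.8% of 6T-CEM peaks. A neighbouring peak with its summit 62.4 kb past the start had a fold of 12.8. A second group lay at 52.8 and 54.7 kb, with folds of 11.2 and 10.6, of which the latter, chr6:135234811-135236271, was 1461 bp wide and had a −log10 q of 49.5. The other peaks of the cluster had lower folds, and those of all 20 ran from 3.21 to 19.7 with a median of 5.12. The library median was 4.65, which 26 of the 40 peaks of 6T-CEM in the interval exceeded, and 5 of the 40 lay in the top 5% of the library by fold.

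Annotated transcripts in this stretch are few. A non-coding RNA gene, LOC105378011, runs from 135195895 to 135236195, across the end of MYB, and 16 peaks of 6T-CEM overlapped it, compared with 1 and 2 in Jurkat replicates 1 and 2. The microRNA gene MIR548A2 lay within a 6T-CEM peak of 319 bp with a fold of 5.25. No protein-coding gene starts or ends between MYB and AHI1. In terms of Jurkat, the cluster lay in a stretch of 66.9 kb without a peak of either Jurkat library, which held 23 peaks of 6T-CEM. Of 18549 such stretches with at least 1 6T-CEM peak, 8 held more.

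**Figure D3:**
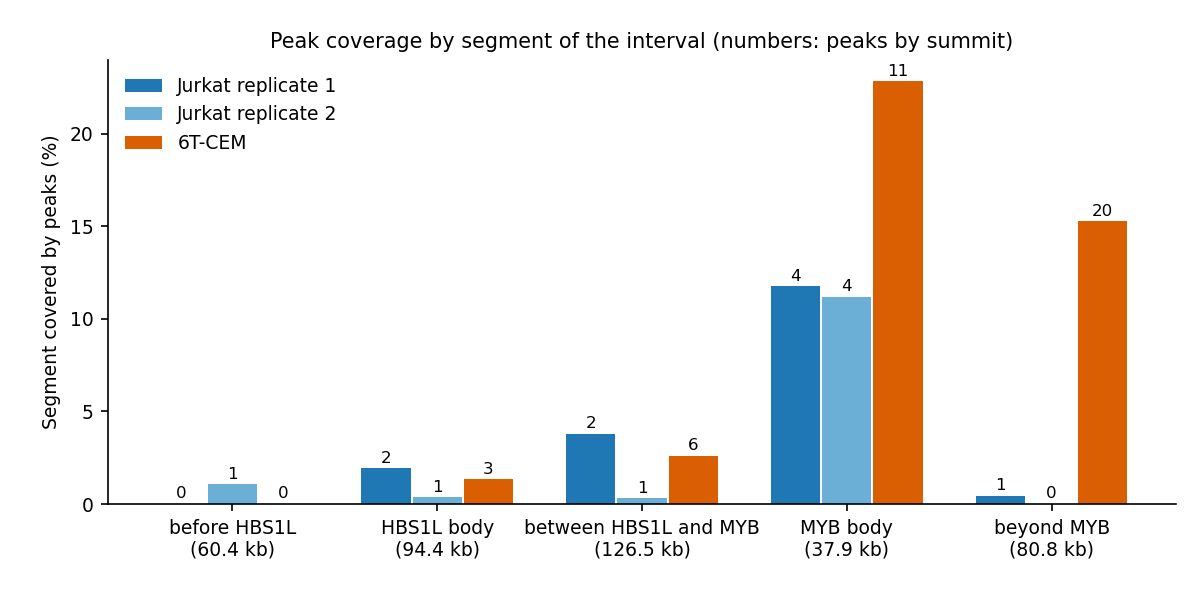
Share of each segment of the HBS1L-MYB interval covered by peaks (vertical axis, percent), with 1 bar per library and the number of peaks above it. In the 80.8 kb beyond MYB, 6T-CEM reaches 15.3% with 20 peaks and Jurkat replicate 1 has 0.445% with 1 peak, while between HBS1L and MYB the highest bar is that of Jurkat replicate 1 with 3.79%.

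Upstream of MYB, where the erythroid enhancers of the gene are known, the libraries had few peaks and 6T-CEM did not lead in bases. Over the 126.5 kb between HBS1L and MYB, peaks covered 4800 bp in Jurkat replicate 1, 401 bp in Jurkat replicate 2 and 3289 bp in 6T-CEM. By summit these were 2, 1 and 6 peaks. In the nearer 50 kb upstream of MYB the values were 977, 0 and 1248 bp, part of which belonged to the peak at the start. The plot of coverage by segment shows this upstream stretch beside the one beyond the gene.

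One upstream region was shared by all libraries. In Jurkat replicate 1 it was a peak of 3499 bp at chr6:135085908-135089406 with a fold of 11.7, the highest fold of that library in the interval. In Jurkat replicate 2 it was a peak of 401 bp with a fold of 3.40, and in 6T-CEM one of 591 bp with a fold of 9.76. The widths thus differed most between the Jurkat replicates. The summits nevertheless lay 93.7 kb before the MYB start in each library and within 27 bases of each other. Of 6016 regions of the genome with exactly 1 peak of each library, 5.14% had summits closer together, and the median range was 201 bases. At the MYB start the range was 1069 bases, and 97.3% of these regions had a smaller one.

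The other upstream peaks were narrow. A region with its summit 34.7 kb before MYB was found in Jurkat replicate 1 with a fold of 4.43 and a width of 297 bp and in 6T-CEM with a fold of 5.56 and a width of 312 bp. Peaks of 6T-CEM alone lay 80.4, 54.6 and 52.0 kb before the start, with folds of 3.18, 4.89 and 4.07. None of these reached the top 5% of its library by fold.

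At HBS1L itself every library had a peak over or close to the start of the gene. Jurkat replicate 1 had 1 peak of 1018 bp across it with a fold of 6.01, and Jurkat replicate 2 had a peak of 346 bp on the gene side with a fold of 4.49. In 6T-CEM a pair of peaks flanked the start, with 381 bp and a fold of 4.03 on the gene side and 338 bp and a fold of 3.64 upstream of it. Within the gene, a region about 40 kb from its start held a 1135 bp peak of Jurkat replicate 1 with a fold of 6.91 and a 458 bp peak of 6T-CEM with a fold of 5.47. Over the 94.4 kb body the covered bases were 1829, 346 and 1266, far below those of MYB per length. The intronic microRNA gene MIR3662 had no peak in any library. Before HBS1L, a single peak of Jurkat replicate 2 lay in ALDH8A1, a retinal dehydrogenase gene, with a fold of 3.89.

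MYBL2 was covered about as much as the median gene, and its covered bases were nearly equal in the libraries. Its window held 2028 bp in Jurkat replicate 1, 2196 bp in Jurkat replicate 2 and 2212 bp in 6T-CEM, next to medians over all genes of 1625, 1971.5 and 2582.5 bp. The log2 ratio between the lines was 0.05, and that between the Jurkat replicates was −0.09. The peaks behind these equal sums were not the same ones. Jurkat replicate 1 and 6T-CEM shared both of their main regions, the promoter and a site before it, with summits 9.3 and 9.4 kb upstream of the start. All 5 peaks of Jurkat replicate 2 overlapped no peak of another library, beside 36.9% of all peaks in its list.

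At the MYBL2 promoter, Jurkat replicate 1 had a peak of 937 bp (chr20:43667033-43667969) with a fold of 6.41. In 6T-CEM the peak there was 922 bp (chr20:43667106-43668027) with a fold of 3.23, followed by one of 875 bp with a fold of 3.55. Jurkat replicate 2 had no peak at the promoter. Its 5 peaks lay 33.1 to 85.1 kb past the start, 2 of them inside the gene and 3 beyond it, with folds of 2.48 to 4.51 and −log10 q of 2.38 to 4.90. None of them stayed at a −log10 q of 5 or more. Peaks of the other libraries in this window had −log10 q of 7.31 and 9.63 in Jurkat replicate 1 and of 5.49 to 8.53 in 6T-CEM. With equally long lists the log2 ratio at MYBL2 became −1.60.

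MYBL1 had almost no acetylation. Its window on chromosome 8 held 411 bp in Jurkat replicate 1, 0 bp in Jurkat replicate 2 and 347 bp in 6T-CEM, each in 1 peak. The Jurkat peak lay at 66613506 to 66613916, just outside the annotated boundary of the gene at 66613218, with a fold of 3.52. The 6T-CEM peak lay elsewhere, at 66534438 to 66534784, outside any protein-coding gene, with a fold of 3.42. Neither overlapped a peak of another library, beside 16.5% of all peaks in Jurkat replicate 1 and 45.4% in 6T-CEM. By −log10 q they ranked 14157 of 16159 and 30083 of 35154 in their lists. With a single low peak per list, the gene could not be ordered between the lines.

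Nearby peaks were also stitched, as is done for super-enhancers, and ranked by the sum of width times fold, which only approximates a ranking by read signal. In 6T-CEM a single region of 88.3 kb with 31 peaks ran from the start of MYB to 49.5 kb past its end, at chr6:135180372-135268718, and ranked 129 of 13075. The widest gap inside it was 7.94 kb, and the nearest 6T-CEM peaks on either side were 33.6 and 50.3 kb away. It was among the 585 regions of that library called large, those above the bend of the rank curve, where its scaled slope passes 1. In Jurkat replicate 1 the region at the MYB start spanned 12.2 kb with 3 peaks and ranked 599 of 8853, and in Jurkat replicate 2 it spanned 7.61 kb with 2 peaks and ranked 743 of 11190. Neither Jurkat region was large, although both stood far up their lists.

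Stitching at 5 kb broke the 6T-CEM region up. Among its pieces that overlapped the MYB body, the highest spanned 8.58 kb, ranked 550 of 17676 and was still large. Pieces lying wholly beyond MYB were not ranked at this setting, so the downstream cluster was not assessed by it. The region at MYB ranked 518 of 10355 in Jurkat replicate 1, where it was not large, and 594 of 15582 in Jurkat replicate 2, where it was. In Jurkat replicate 1 the upstream region 93.7 kb before MYB, a single peak, was itself large at rank 407, while the same site ranked 9805 in Jurkat replicate 2 and 5873 in 6T-CEM. No stitched region over MYBL2, HBS1L or MYBL1 was large in any library. The best rank among them was 2143, for MYBL2 in Jurkat replicate 1, and at 5 kb it was 3823, for HBS1L in the same library.

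**Figure D4:**
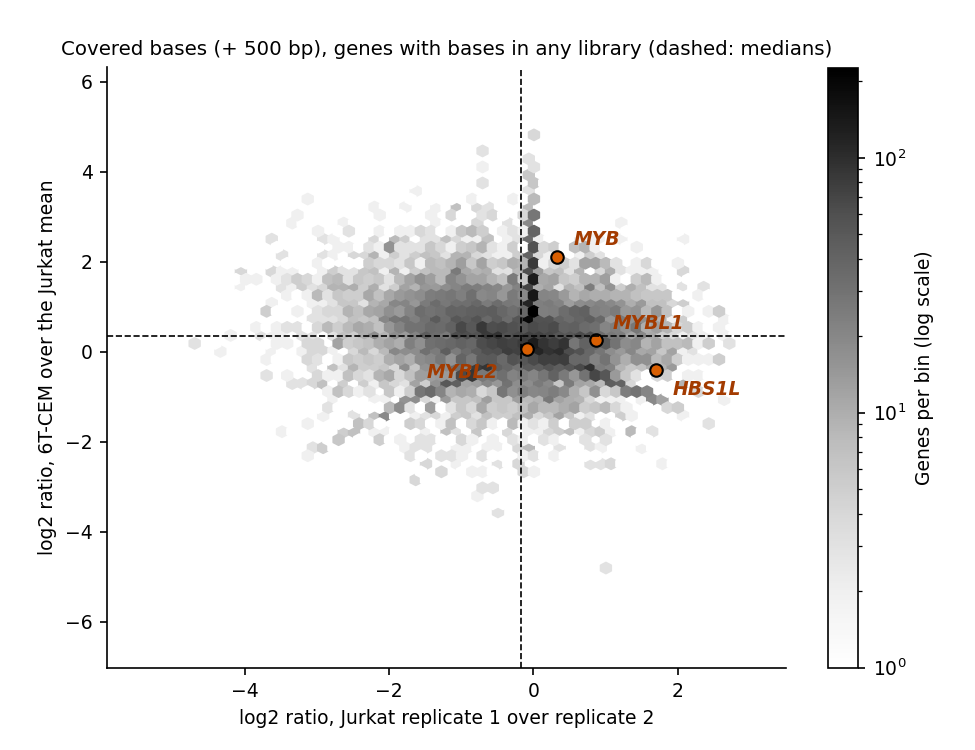
Log2 ratio of covered bases between 6T-CEM and the Jurkat mean (vertical axis) against that between the Jurkat replicates (horizontal axis) for 15640 genes, with darker bins holding more genes and dashed lines at the medians. MYB stands at 2.09 on the vertical axis and 0.32 on the horizontal one, MYBL2 near the origin, and HBS1L at 1.70 on the horizontal axis.

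The plot of all genes sets the members beside the rest of the genome. The genes most like MYB, by the distance of log2 covered bases over the 3 libraries, were ELMO1, which encodes a regulator of cell migration, with 4787, 5013 and 18967 bp, ARHGEF3, a guanine nucleotide exchange factor gene, with 5036, 4520 and 17561 bp, and the phosphatase gene PPM1H with 4914, 5293 and 19408 bp. The distances were 0.35, 0.36 and 0.37. For MYBL2 they were POLR1E, MAPKAPK5 and CCL25, at distances of 0.028 to 0.054. For MYBL1 they were TCEANC, C1orf116 and C4BPB, which had 419 to 420, 0 and 322 to 351 bp.

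Partners and described targets of the MYB family were read in the same windows. Of 44 genes in 6 lists, 43 had covered bases in any library, 5 were called higher in 6T-CEM and 2 lower, beside 14.9% and 2.74% of all genes. Their median log2 ratio was 0.34, next to 0.35 over all genes, and their median between the Jurkat replicates was −0.14. The shares were thus near those of the genome.

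**Figure D5:**
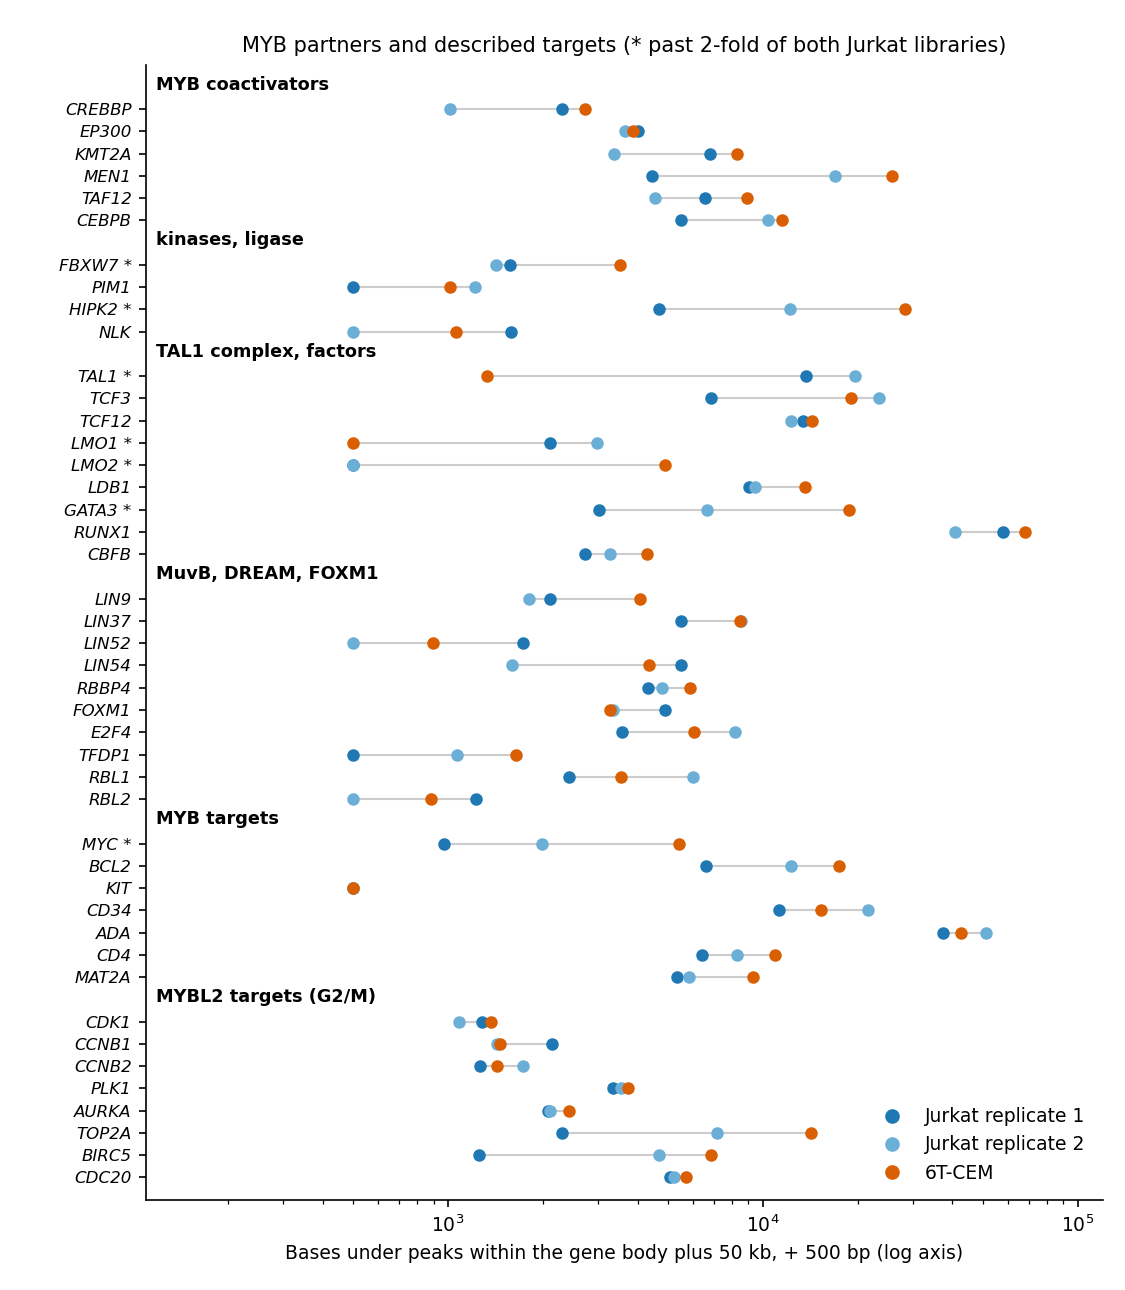
Bases under peaks within the body and 50 kb on either side of 44 genes, with 500 bp added (horizontal log axis), with 1 point per library and a line from the lowest to the highest. Stars mark the 7 genes past 2-fold of both Jurkat libraries in either direction: TAL1 and LMO1 lie to the left in 6T-CEM, and FBXW7, HIPK2, LMO2, GATA3 and MYC to the right.

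Of 9 genes in the list of the TAL1 complex and T-ALL factors that share enhancers with MYB, 2 were called higher and 2 lower. Over all genes these shares were 14.9% and 2.74%. The median log2 ratio of the list was 0.46, next to 0.35 over all genes. TAL1, with a log2 ratio of −3.65, and LMO1, a bridging partner of TAL1, were called lower. LMO1 had 1608 and 2465 bp in Jurkat and was listed at 0 in 6T-CEM. LMO2, which can take the place of LMO1, was listed at 0 in both Jurkat libraries, had 4399 bp in 6T-CEM and was called higher. GATA3, a T-cell fate regulator, had 2524, 6151 and 18344 bp and was called higher. The other 5 genes of the list were not called. RUNX1 was broadly covered in each library, with 57649, 40176 and 67392 bp.

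Among the enzymes that act on MYB, 2 of 4 genes were called higher, beside 14.9% of all genes, and the list is too short to give a share. FBXW7, which encodes a ubiquitin ligase subunit that targets MYB, MYC and NOTCH1, had 1070 and 923 bp in Jurkat replicates 1 and 2 and 3011 bp in 6T-CEM. The kinase gene HIPK2 had 4166, 11698 and 27851 bp. PIM1 and NLK, further kinase genes, had 0, 718 and 518 bp and 1085, 0 and 564 bp, with 6T-CEM between the Jurkat libraries in both.

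Of the 6 coactivator and partner genes none was called, beside 14.9% of all genes called higher and 2.74% lower. CREBBP and EP300, which encode the acetyltransferases CBP and p300, had 1798, 517 and 2228 bp and 3515, 3138 and 3383 bp. MEN1, the menin gene, had 3960 and 16492 bp in Jurkat replicates 1 and 2 and 25255 bp in 6T-CEM, so the Jurkat libraries differed more from each other than 6T-CEM did from the second. KMT2A, TAF12 and CEBPB had 6T-CEM values of 7808, 8433 and 10973 bp, above both Jurkat libraries by less than 2-fold of the higher one. The median log2 ratio of the list was 0.70.

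The described targets of MYB included 1 called gene of 7, near the 14.9% of all genes called higher. It was MYC, a growth regulator, with a log2 ratio of 1.87. The survival gene BCL2 was not called, with 6081, 11800 and 16949 bp. ADA, a purine metabolism gene with a thymic enhancer, had 36781, 50548 and 42236 bp, the widest coverage of the list in every library, and KIT was listed at 0 in all of them. None of the 10 MuvB, DREAM and FOXM1 genes and none of the 8 G2 and M phase genes was called in either direction, beside 14.9% of all genes called higher and 2.74% lower. Their median log2 ratios were 0.16 and 0.18, next to a median of 0.35 and an SD of 1.00 over all genes. PLK1, a mitotic kinase gene, had 2839, 3056 and 3224 bp and FOXM1 4392, 2844 and 2767 bp. LIN9, a MuvB subunit gene, had 1612, 1305 and 3561 bp, just short of the 2-fold rule. TOP2A, a topoisomerase gene, had 1802, 6671 and 13777 bp, and BIRC5, the survivin gene, 754, 4164 and 6365 bp, both with the Jurkat libraries far apart.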

How the data were processed

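H3K27ac was profiled in 2 Jurkat libraries and 1 library of 6T-CEM. CUT&Tag is the assay in the series' design text, but the labels' extraction protocol describes sonication and antibody isolation. The submitters' processing notes name Bowtie2 2.2.5, MACS2 2.2.7 and hg38, without options, and no source used here says whether IgG served as control. The deposited lists, 1 per library, give a fold enrichment (a ratio to background), the −log10 p-value and −log10 q-value and a score per peak, all the authors' own values.

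Chromosomes 1 to 22 and X were analysed. Bases under peaks, summits and overlaps (at least 1 base) were computed here, with gene positions from RefSeq GRCh38.p14 (19974 protein-coding genes, 15813 of them with a known strand). Members and lists were chosen with earlier results of these data known. Named genes were the members, their neighbours, listed genes that were called or, up to 4 per list, most covered (others named were chosen after their values were seen), and the 3 genes most like each MYB family member on other chromosomes. Alternatives were peaks with −log10 q from 5 upwards, equal list lengths (16159 peaks each, by −log10 q), windows of 25 kb and 100 kb, 2000 bp added, other overlap and stitching rules, and leaving out each Jurkat library. A B-cell marker is not reported here. The scripts were tested on simulated data. Python 3.11.15, NumPy 2.4.6, pandas 2.3.3 and matplotlib 3.10.9 were used.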

Additional observations from a re-analysis of the deposited data

How the results depend on the processing

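No paired analysis was possible because 6T-CEM has 1 H3K27ac library and no test was run. Over its whole window MYB was called higher in 6T-CEM under every alternative tried, though not in its gene body or upstream part taken alone. The log2 ratios of the window were 1.94 to 2.26 when 1 Jurkat library was left out. With equally long lists its log2 ratio was 1.66, in windows of 25 and 100 kb it was 1.67 and 1.68, and with 2000 bp added it was 1.83. At MYBL1, where each list had at most 1 peak within 50 kb, the ratio was −0.50 with equally long lists and −0.50 within 25 kb. With 1 Jurkat library left out it was −0.11 to 0.76. Within 100 kb it was −1.23, with 2861 and 1968 bp in Jurkat replicates 1 and 2 and 740 bp in 6T-CEM. At HBS1L it was 0.69 without Jurkat replicate 1. At MYBL2 it was −1.60 with equally long lists, 0.84 for peaks with −log10 q from 5 upwards and 0.14 within 25 kb. In the 50 kb beyond MYB, an alternative added after seeing the data gave 8351 bp in 6T-CEM with equally long lists and 10840 bp with −log10 q from 5 upwards, and 0 bp in both Jurkat libraries each time.

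Over all genes, calls numbered 3587 higher and 1391 lower without Jurkat replicate 1 and 5310 and 976 without Jurkat replicate 2, since a single library then had to be passed. Pathway genes called higher then numbered 10 and 13, beside 22.9% and 34% of all genes in the same order. With 2000 bp added the counts were 1041 higher and 80 lower, or 6.66% and 0.512% of genes, with 3 pathway genes higher and 1 lower. Within 100 kb 8 of 44 pathway genes were higher, beside 2526 of 16990 genes (14.9%). With equally long lists 1170 genes were lower. Regions of the interval found in 6T-CEM alone numbered 17 when peaks within 1 kb were joined and 15 with equally long lists, and regions of all libraries numbered 2 with −log10 q from 5 upwards. Regions of Jurkat without 6T-CEM numbered 1 to 3 with 1 Jurkat library left out. For these region counts no genome share was taken under the same settings, so they cannot be set beside one. With stitching at 5 kb the region at MYB ranked 550 in 6T-CEM and 594 in Jurkat replicate 2, where it became large. In Jurkat replicate 2 it ranked 1810 of 11190 when scored by width and 571 of 7700 with equally long lists, beside 743 of 11190 at first. The cause of these shifts was not tested. The unknown depth of the lists limits every absence of a peak.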
